A study of Rattus norvegicus with 20 samples.

Results

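Low-dose STW5 was set against omeprazole in the oesophagus of Wistar rats with surgically induced reflux oesophagitis, over the 4 arrays titled as STW5 at 0.5 ml/kg and the 4 arrays titled as omeprazole at 30 mg/kg, 8 of the 20 arrays in the series. The clearest difference was in striated muscle: Tnnt1 and Tnnc1, the slow-fibre subunits of troponin, stood about 8.06-fold and 7.19-fold higher in the low-dose STW5 arrays. Angpt2, an antagonist ligand of the endothelial receptor Tie2, was 5.04-fold lower in low-dose STW5, and Emcn, a sialomucin of the venous and capillary endothelium, was 3.42-fold lower. Angpt2 was well above background on only 1 of the 4 low-dose arrays, so its fold rests on low signals there. Fa2h, which 2-hydroxylates fatty acids of epidermal and myelin lipids, was 2.37-fold higher. The proton pump genes and the aryl hydrocarbon receptor genes that omeprazole is known for gave no difference that passed the test. The pump genes Atp4a and Atp12a were well above background on only some arrays of each group. Genes with probes rich in A and T read lower in low-dose STW5 as a class, and 177 genes that split by slide are described apart. For the other genes too, the low-dose and omeprazole arrays lay on different slides, so slide and drug cannot be told apart. Of 22 alternative analyses, the Emcn call was lost in 7, the Angpt2 and Fa2h calls in 2 each and the Tnnc1 call in 1.

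STW5 is a herbal medicine, a mixture of plant extracts in liquid form, taken for functional dyspepsia and irritable bowel. Omeprazole blocks the gastric H+/K+-ATPase, the proton pump of the stomach. Dosing began 7 days ahead of the operation and went on for 10 days afterwards, every rat in both groups had the reflux operation, and RNA of oesophageal tissue was measured on one-colour Agilent rat arrays, with 4 animals and 4 arrays per group by the series description. The series also holds sham-operated rats, operated rats without a drug, and operated rats given STW5 at 2 ml/kg, again with 4 arrays each. The rats' age and sex are not given in the sources used here. The comparison asks how the tissue differs between a herbal drug that is not an acid blocker and standard acid suppression.

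The rat oesophagus is lined by a keratinizing squamous epithelium over a connective tissue with vessels and nerves, and its outer coat is striated muscle along nearly the whole length. Slow and fast striated fibres carry different isoforms of the troponin complex, the calcium switch of the thin filament, so troponin genes read out the kind of fibre in a sample. Omeprazole raises gastrin by lowering gastric acid and, apart from that, activates the aryl hydrocarbon receptor, whose main target gene is Cyp1a1. In bulk tissue, fewer cells of a type and less RNA per cell cannot be told apart.

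The arrays themselves bear on each value below. The low-dose arrays lay on 1 slide with the untreated arrays, and the omeprazole arrays on another with the high-dose arrays, so slide and drug cannot be told apart in this comparison. The array signal differed with them, since the 75th percentile lay between 563 and 636 units in low-dose and between 834 and 1055 units in omeprazole arrays, and 61.5% to 64.3% against 66.5% to 68.6% of features were well above background. The spread between low-dose replicates 1 and 2 was 1.14 times that between repeat spots. Any other pair within a group reached at least 2.61 times, and the closest pair between groups 2.09 times. The mean of low-dose replicates 1 and 2 was therefore counted as 1 sample, and n was 3 against 4. The authors' value table gives the STW5 columns the other dose than the scanner files do, and the series description numbers the STW5 groups the other way from the titles, so which dose the arrays hold is not settled. The scanner files were used under their titles, and the values of the arrays titled as high dose are given beside the main genes.

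Of 13630 genes tested, 85 were higher (0.624%) and 253 lower (1.86%) in low-dose STW5 than in omeprazole at an adjusted p under 0.05 (limma, Benjamini-Hochberg), 2.48% in all. Some of these calls lie on probes where all 8 high-dose and omeprazole arrays, which share a slide, read beyond all 12 other arrays. There were 177 such genes, 164 of them read higher on that slide and 13 lower, and they held 3 of the higher and 137 of the lower calls. With these genes set aside, 82 genes were higher and 116 lower, 1.47% of the 13453 that remained. The calls had a median difference of 0.76 on the log2 scale where higher and -1.45 where lower, against 0.05 over all genes, with a median standard error of 0.26. All 4 low-dose arrays lay above all 4 omeprazole arrays for 1609 genes (11.8%) and below them for 1016 genes (7.45%).

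These counts depended on single samples. Without low-dose replicate 4, 296 genes outside the set-aside probes were higher and 354 lower, and without low-dose replicate 3 the counts were 12 and 44. Without the sample made of low-dose replicates 1 and 2 they were 13 and 53. Leaving out an omeprazole replicate gave 41 and 69 (replicate 1), 31 and 58 (replicate 2), 16 and 44 (replicate 3) or 29 and 70 (replicate 4). The share of higher calls outside the set-aside probes, 41.4% here, was 57.6% with quantile normalization, 87.4% with the array median and 92.6% with the normexp background.

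**Figure D1:**
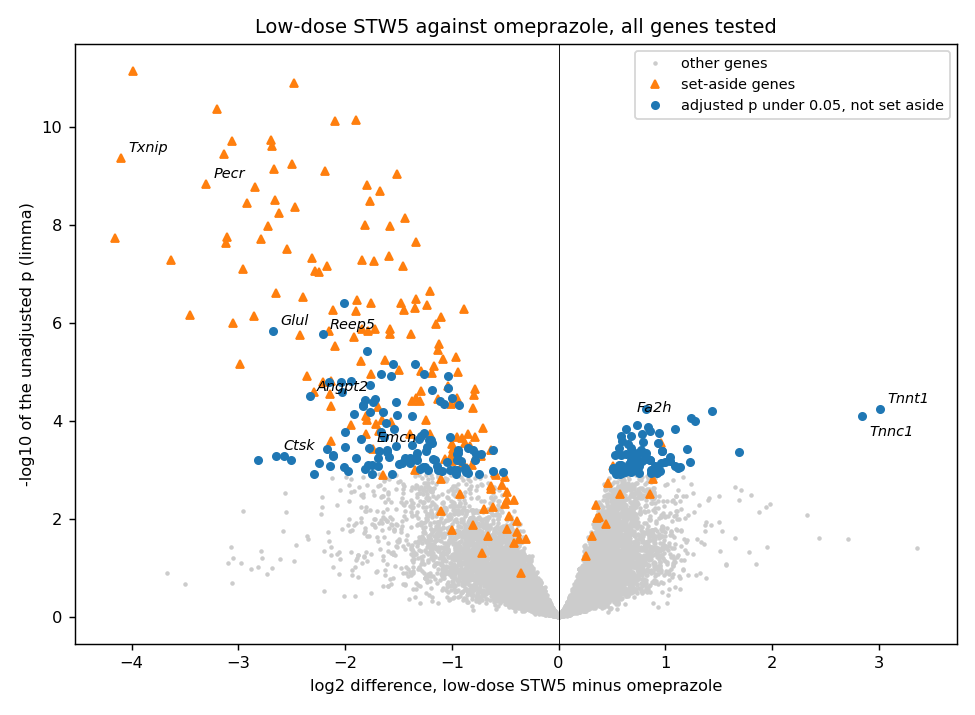
Each point is 1 of 13630 genes, with the log2 difference between low-dose STW5 and omeprazole on the x axis and -log10 of the unadjusted limma p on the y axis. Set-aside genes (triangles) lie mostly at the left, and the height of these points is shown as a description only, while Tnnt1 and Tnnc1 stand apart at the right.

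The slow troponins came first among the genes that were higher. Tnnt1, slow skeletal troponin T, read 6.77, 6.72, 6.67 and 5.42 in low-dose replicates 1 to 4 and 4.22, 3.27, 3.13 and 2.46 in omeprazole replicates 1 to 4, in log2 units relative to the 75th percentile of the array. All low-dose arrays lay above all omeprazole arrays, and low-dose replicate 4 was the lowest of its group. The difference was 3.01 ± 0.56 (SE, n = 3 and 4, adjusted p = 0.00582), and a second Tnnt1 probe gave 2.95. Tnnc1, the troponin C of slow and cardiac muscle, read 4.16, 4.10, 3.87 and 2.91 against 1.42, 0.54, 0.39 and 0.81. Its difference was 2.85 ± 0.55 (adjusted p = 0.00771), again with no overlap and with replicate 4 lowest. Without the sample made of low-dose replicates 1 and 2 the Tnnc1 difference was 2.60 with an adjusted p of 0.0578, and the Tnnt1 difference was 2.78 with an adjusted p of 0.0443.

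The troponin difference was also seen on a single slide. The arrays titled as high dose, on the slide of the omeprazole arrays, read between 6.01 and 6.76 for Tnnt1 and between 3.36 and 3.92 for Tnnc1. They exceeded the same omeprazole arrays by 3.13 ± 0.52 (adjusted p = 0.0192) and 2.91 ± 0.51 (adjusted p = 0.0214), and differed from the low-dose arrays by 0.12 (adjusted p = 0.891) and 0.06 (adjusted p = 0.942). So the size was nearly the same under either assignment of the doses, although both comparisons share the omeprazole arrays. Untreated arrays spanned 4.43 to 6.03 for Tnnt1 and 2.09 to 4.40 for Tnnc1, above the omeprazole means of 3.27 and 0.79 by 2.04 (adjusted p = 0.00886) and 2.56 (adjusted p = 0.00195). Sham arrays spanned 2.97 to 5.56 for Tnnt1 and 0.53 to 2.88 for Tnnc1, and neither low-dose STW5 (adjusted p = 0.385 and 0.399) nor omeprazole (adjusted p = 0.672 and 0.577) differed from them past the threshold.

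Other slow-fibre genes lay in the same direction without passing the test. Of 15 slow-fibre genes measured, 2 passed, both higher, beside 0.624% of all genes, and 14 lay above 0, with a median of 0.49 beside 0.05 for all genes. With no overlap of arrays 3 lay higher, 20% beside 11.8% of all genes. The median was 0.17 with quantile normalization and 0.82 without omeprazole replicate 1. Tnni1, slow troponin I, gave 1.00 ± 0.38 (adjusted p = 0.158), and its arrays overlapped. Myl2, the regulatory light chain of slow and cardiac myosin, gave 3.36 ± 1.51 (adjusted p = 0.221), with 0.56 in low-dose replicate 3 and -6.83 in replicate 4. Myl2 was well above background on 3 low-dose arrays and on 1 omeprazole array, so its difference rests on low signals. Myh6, a cardiac myosin heavy chain, gave 2.71 ± 1.11 (adjusted p = 0.181). Myh6 is nearly identical in sequence to the slow heavy chain gene Myh7, so a probe may read both. The fast-fibre list had a median of 0.01, whose sign turned with quantile normalization and with normexp, with 0 of 18 members called. By unadjusted p under 0.05 in limma 1 was higher and 1 lower, 5.56% each beside 11.3% and 9.35% of all genes.

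**Figure D2:**
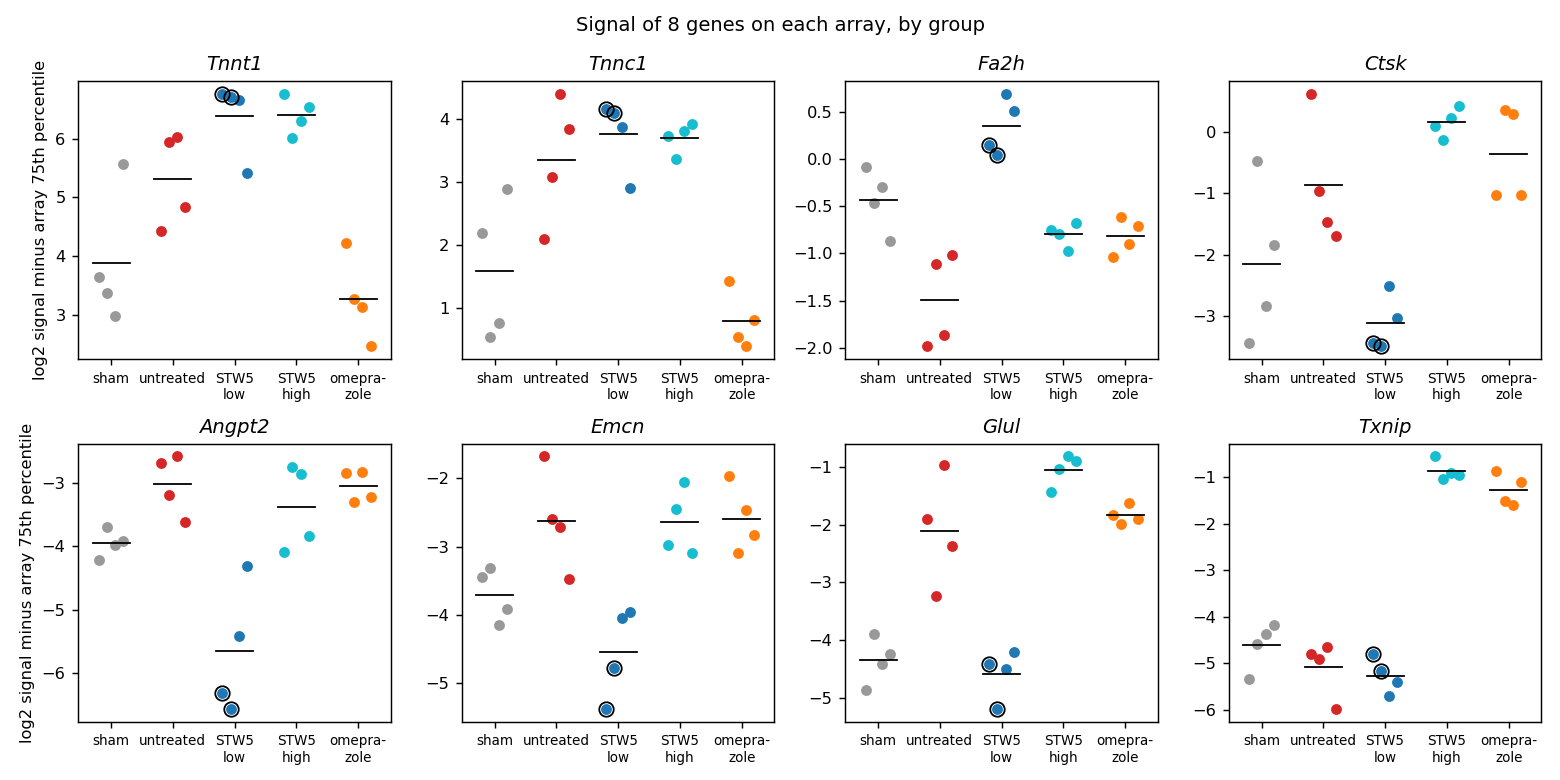
Each point is 1 array, with the log2 signal minus the 75th percentile of the array on the y axis and the 5 groups on the x axis; bars are means of 4 arrays and black rings mark the near-identical low-dose replicates 1 and 2. Tnnt1 and Tnnc1 are low in omeprazole against both STW5 groups, Angpt2 lies lower in low-dose STW5 than in every other array, Emcn overlaps with sham arrays only, and Txnip is high on the slide of high-dose and omeprazole arrays.

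The other genes with the largest rises came from separate pathways. Fa2h read 0.15, 0.04, 0.69 and 0.50 in low-dose and -1.03, -0.62, -0.90 and -0.71 in omeprazole arrays, a difference of 1.24 ± 0.24 (adjusted p = 0.00823). All 4 low-dose arrays lay above every array of the other groups, among which untreated arrays were lowest, at -1.98 to -1.01. The arrays titled as high dose differed from omeprazole, on the same slide, by 0.02 for Fa2h (adjusted p = 0.979). Without low-dose replicate 3 the Fa2h difference was 1.11 with an adjusted p of 0.0661, and in the value table, which sets the other STW5 arrays against omeprazole, it was 0.092 (adjusted p = 0.886).

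Smaller rises, between 0.96 and 1.69 with adjusted p between 0.0127 and 0.0426, included Slc25a25, a calcium-dependent ATP-Mg/phosphate carrier of mitochondria, at 0.97 ± 0.22, Dusp16, a phosphatase of the JNK and p38 kinases, at 1.05 ± 0.25, and Csnk1e, a casein kinase that phosphorylates period proteins of the clock, at 0.97 ± 0.22, for which the other probes gave 0.94 and 0.39. Dgki, a diacylglycerol kinase, and the transcription factors Zfp507 and Bhlhe23 were higher by 1.05, 1.09 and 1.09. Tcp11 and Loxhd1, genes best known from testis and inner ear, were higher by 1.20 and 1.12. In omeprazole arrays Ccdc175 and the odorant receptor gene Or2t6 were not well above background, so their folds are bounds against the lowest signal well above background, at least 1.82-fold and at least 1.04-fold higher in low-dose STW5. All 10 of these genes lost their call with only these groups fitted and in the value table, and all but Zfp507 lost it without low-dose replicate 3 and without omeprazole replicate 3. The number of alternatives that ended the call lay between 3 for Zfp507 and 12 for Or2t6.

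Among the genes that were lower, the vessel genes formed the best described group. Angpt2 read -6.31, -6.57, -5.41 and -4.31 in low-dose replicates 1 to 4 and -2.85, -3.31, -2.83 and -3.23 in omeprazole replicates. The groups did not overlap, and low-dose replicate 4 lay nearest to omeprazole. Angpt2 was well above background on 1 low-dose array and on all 4 omeprazole arrays. The difference was -2.33 ± 0.41 (adjusted p = 0.00379), and Angpt2 was also lower than in the untreated arrays of the same slide, by 2.37 (adjusted p = 0.000555). Emcn read -5.38, -4.77, -4.05 and -3.96 against -1.96, -3.09, -2.47 and -2.83, a difference of -1.77 ± 0.40 (adjusted p = 0.0247). With the normexp background the differences were -0.56 for Angpt2 (adjusted p = 0.0375) and -0.68 for Emcn (adjusted p = 0.0598). Emcn passed neither without low-dose replicate 3 (adjusted p = 0.0515) nor without omeprazole replicate 1 (adjusted p = 0.0732) or 3 (adjusted p = 0.0728), nor without low-dose replicates 1 and 2 together (adjusted p = 0.138). With only these groups fitted the adjusted p was 0.0593 for Angpt2 and 0.0671 for Emcn.

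Of 24 endothelial and vessel growth genes measured, 2 passed, both lower, beside 1.86% of all genes, and 9 lay lower with no overlap of arrays, 37.5% beside 7.45%. The median was -0.75, and it was -0.38 without low-dose replicates 1 and 2 together and -0.40 with normexp. Tie1, an endothelial receptor kinase, gave -2.12 ± 0.56 (adjusted p = 0.0525), Esam, an endothelial adhesion molecule, -1.28 ± 0.34 (adjusted p = 0.0529), and Cldn5, the tight junction protein of endothelium, -1.23 ± 0.41 (adjusted p = 0.113). Like Angpt2, Tie1 was well above background on 1 low-dose array only. Over the 24 genes the arrays titled as high dose had a median of 0.38 against omeprazole. For Angpt2 and Emcn the high-dose arrays differed from the low-dose arrays by 2.00 (adjusted p = 0.00475) and 1.72 (adjusted p = 0.00803), with slide and dose again not to be told apart.

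Connective tissue genes had medians of like size and few or no calls. Of 32 fibrillar matrix and collagen processing genes 0 passed. By an unadjusted p under 0.05 by limma 15 were lower and 0 higher, 46.9% lower beside 9.35% of all genes. Below 0 lay 28 genes, and 14 lay lower with no overlap of arrays, 43.8% beside 7.45% of all genes, with a median of -0.82. Fbn1, which encodes the microfibril protein fibrillin 1, gave -1.50 ± 0.41 (adjusted p = 0.0595), and the collagen genes Col5a1 and Col1a2 gave -1.64 ± 0.48 (adjusted p = 0.0769) and -0.93 ± 0.28 (adjusted p = 0.0817). Among 28 matrix proteases and inhibitors 1 passed, lower, beside 1.86% of all genes. It was Ctsk, the collagen-cleaving cathepsin K. With no overlap 5 lay lower, 17.9% beside 7.45% of all genes. The median of this list was -0.77, and it was -0.48 without low-dose replicates 1 and 2 together and -0.15 with normexp. Ctsk read -3.43, -3.49, -2.50 and -3.03 in low-dose and -1.03, 0.36, 0.28 and -1.02 in omeprazole arrays. Its difference was -2.65 ± 0.62 (adjusted p = 0.0308), from a probe of only 25% G and C. With genes centred within classes of probe composition it was -0.96 (adjusted p = 0.361). Ctsk passed neither without low-dose replicate 3 (adjusted p = 0.0648) nor without low-dose replicates 1 and 2 together (adjusted p = 0.13), nor without omeprazole replicate 2 (adjusted p = 0.0853) or 3 (adjusted p = 0.0984), and its sign turned in the value table. Adamts5, an aggrecan-cleaving protease, gave -1.35 ± 0.38 (adjusted p = 0.0668), and was well above background on 2 low-dose and all 4 omeprazole arrays.

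Proliferation genes had a median of like size, with calls close to the threshold. Of 31 cell cycle and DNA replication genes 2 passed, both lower, beside 1.86% of all genes, and 16 had an unadjusted p under 0.05, all lower, 51.6% beside 9.35%. With no overlap of arrays 5 lay lower, 16.1% beside 7.45% of all genes. The median was -0.80, and it was -0.39 without low-dose replicate 3 and -0.40 with normexp. Tpx2, a spindle assembly factor, differed by -1.29 ± 0.32 (adjusted p = 0.0447) and Tyms, thymidylate synthase, by -1.02 ± 0.26 (adjusted p = 0.045). Top2a, the topoisomerase of dividing cells, gave -1.31 ± 0.37 (adjusted p = 0.068) and -1.30 on a second probe. Both calls were lost with quantile normalization and without low-dose replicate 3 or 4, and without omeprazole replicate 2, 3 or 4.

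Among genes of pain and lipid mediators, Tacr1 and Hpgds passed. Tacr1, the receptor of substance P, read -6.35, -6.13, -5.41 and -4.70 in low-dose and -2.95, -3.42, -3.71 and -3.82 in omeprazole arrays, a difference of -1.98 ± 0.50 (adjusted p = 0.0461). Tac1, which encodes substance P, gave -2.08 ± 0.65 (adjusted p = 0.0919) and -2.15 on a second probe, and Ednrb, an endothelin receptor, gave -1.99 ± 0.52 (adjusted p = 0.052). The pain and neuropeptide list as a whole had 1 call, lower, over 22 genes, beside 1.86% of all genes. It had a median of -0.18 beside 0.05 for all genes, and 5 genes lower and 0 higher by unadjusted p under 0.05, 22.7% lower beside 9.35% of all genes. Its median turned positive with the array median and with normexp, and was -0.38 without low-dose replicate 4, -0.11 without low-dose replicates 1 and 2 together and -0.28 without omeprazole replicate 4. Hpgds, the haematopoietic prostaglandin D synthase, differed by -1.59 ± 0.37 (adjusted p = 0.032), the only call among 29 eicosanoid genes, beside 1.86% of all genes called lower. The eicosanoid list had a median of -0.42 that turned to 0.12 with normexp and was -0.20 without low-dose replicates 1 and 2 together. The Tacr1 and Hpgds calls were both lost without low-dose replicate 3 and without any 1 omeprazole replicate. They were also lost with normexp, with quantile normalization and with genes centred within classes of probe composition. Tacr1 and Hpgds were each well above background on 1 low-dose array and on all 4 omeprazole arrays. For Ednrb these numbers were 2 and 4.

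The 10 immune lists held 0 calls by limma, beside 0.624% of all genes called higher and 1.86% lower, and 8 of them had medians below 0. By unadjusted p under 0.05, 9.35% of all genes were lower and 11.3% higher. Complement and acute phase genes had a median of -0.94 over 22 genes (6 lower and 0 higher by unadjusted p), with C1s at -1.97 ± 0.60 (adjusted p = 0.0844) and Lbp, which binds bacterial lipopolysaccharide, at -2.95 ± 0.96 (adjusted p = 0.105). Macrophage genes had a median of -0.74 over 24 genes (4 lower and 0 higher), with the mannose receptor Mrc1 at -1.26 ± 0.38 (adjusted p = 0.0853). Lbp was well above background on 2 low-dose arrays and Mrc1 on 1, and both on all 4 omeprazole arrays. Chemokines and their receptors had a median of -0.60 over 30 genes (3 lower and 0 higher), interferon response genes -0.46 over 28 (4 and 1), neutrophil granule genes -0.77 over 19 (1 and 1) and T and NK cell genes -0.67 over 14 (1 and 1). Class II histocompatibility genes had a median of -0.65 over 12 genes (1 and 0) and mast cell and eosinophil genes -0.81 over 12 (2 and 0). Cytokines had a median of 0.14 over 29 genes (4 and 0), and the B and plasma cell list 0.07 over 3 (0 and 1).

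Single samples moved each of these immune medians by over 1.5 times. Without low-dose replicates 1 and 2 together the median was -0.31 for complement, -0.16 for macrophage, -0.074 for chemokine, -0.27 for interferon, -0.065 for neutrophil, -0.36 for class II and -0.30 for mast cell and eosinophil genes. Without low-dose replicate 4 it was -1.47 for complement, -1.32 for macrophage, -0.98 for chemokine, -1.33 for neutrophil and -1.39 for mast cell and eosinophil genes. The neutrophil median was also -1.23, -0.38 and -0.41 without omeprazole replicates 1, 2 and 3. The T and NK cell median was -0.30 without low-dose replicate 4 and -0.36 without omeprazole replicate 2. The cytokine median was 0.026 without low-dose replicate 3, 0.22 without low-dose replicates 1 and 2 together and 0.055, 0.28, 0.21 and 0.018 without omeprazole replicates 1 to 4, and the B and plasma cell median lay between -0.12 (without low-dose replicate 3) and 0.50 (without low-dose replicate 4). With normexp the medians of the neutrophil, of the T and NK cell and of the mast cell and eosinophil lists turned positive, at 0.11, 0.26 and 0.24. The arrays titled as high dose had medians above 0 against omeprazole for all 10 lists, between 0.07 and 1.37, a comparison that shares the omeprazole arrays. Against the untreated arrays the 10 lists had medians between -4.12 and -0.34 in low-dose STW5 and between -3.51 and -0.41 in omeprazole, comparisons that share the untreated arrays.

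**Figure D3:**
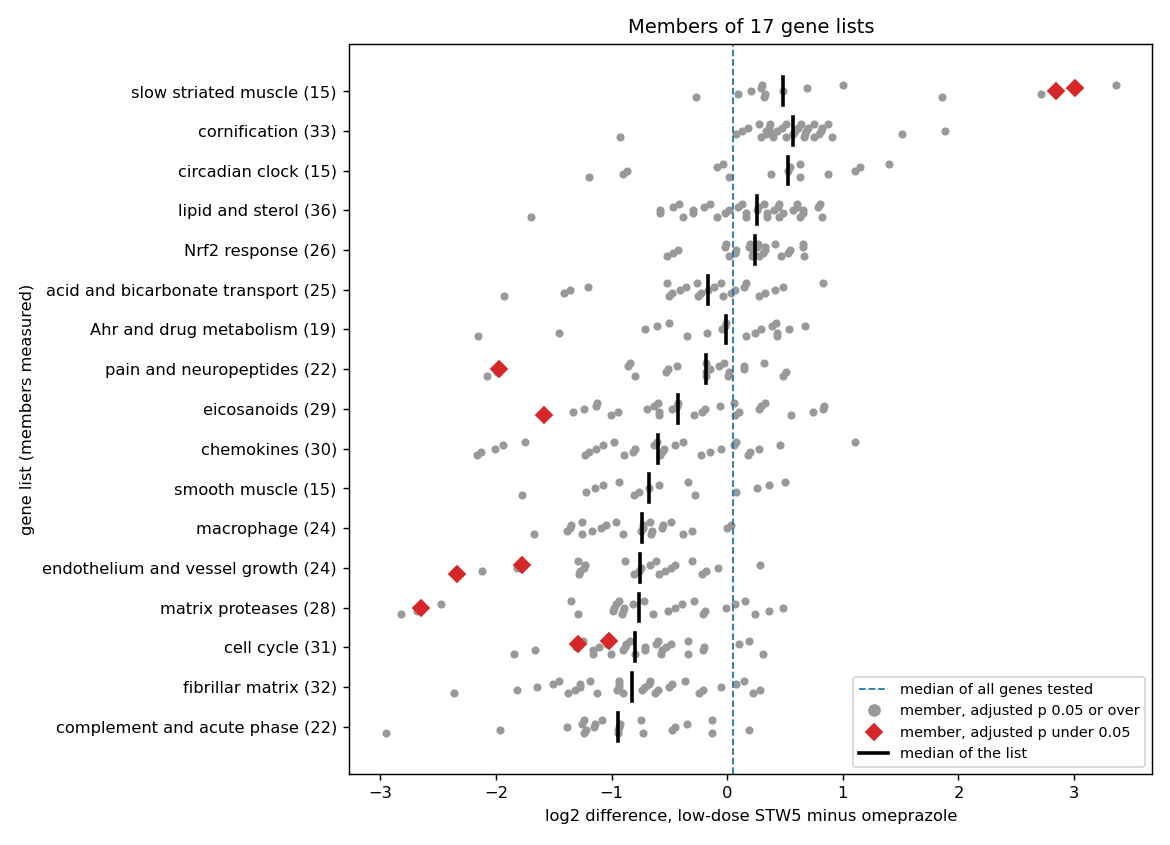
The x axis is the log2 difference between low-dose STW5 and omeprazole for each measured member of 17 gene lists on the y axis, with black bars for list medians and a dashed line for the median of all genes, 0.05. Lists of vessel, matrix, protease, cell cycle, complement, macrophage and chemokine genes have medians between -0.94 and -0.60, while the slow muscle, cornification and clock lists have medians of 0.49, 0.57 and 0.53.

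The squamous epithelium and clock lists had medians above 0 and 0 calls by limma. Of 33 cornification genes 32 lay above 0, with a median of 0.57, but 4 were higher by an unadjusted p under 0.05, 12.1% beside 11.3% of all genes. With no overlap 7 lay higher, 21.2% beside 11.8% of all genes. The cornification median was 0.90 without low-dose replicate 4, 0.40 without low-dose replicate 3 and 0.38 with quantile normalization. Arrays titled as high dose had a median of -0.76 against omeprazole for this list, the opposite direction, in a comparison that shares the omeprazole arrays. Cnfn, the cornified envelope protein cornifelin, gave 0.87 ± 0.27 (adjusted p = 0.0887) and Krt1, a suprabasal keratin, 1.88 ± 0.62 (adjusted p = 0.107). The clock output genes Dbp and Tef and the clock repressor Nr1d2 gave 1.40 ± 0.42 (adjusted p = 0.0832), 0.87 ± 0.27 (adjusted p = 0.0887) and 1.10 ± 0.33 (adjusted p = 0.0769). The 15 clock genes had a median of 0.53, or 0.32 without low-dose replicates 1 and 2 together, but went both ways, from -1.20 to 1.40. By unadjusted p under 0.05 in limma 6 were higher and 2 lower, 40% and 13.3% beside 11.3% and 9.35% of all genes. With no overlap of arrays 4 clock genes lay higher and 3 lower, 26.7% and 20% beside 11.8% and 7.45% of all genes. Nrf2 target genes had a median of 0.24 over 26 genes, or 0.12 without omeprazole replicate 1 and 0.032 with quantile normalization, with the ferritin heavy chain Fth1 at 0.66 ± 0.18 (adjusted p = 0.0541), and lipid and sterol genes 0.26 over 36, with Hadha, an enzyme of fatty acid oxidation, at 0.60 ± 0.18 (adjusted p = 0.084). A second Fth1 probe gave 0.52, but a second Hadha probe gave only 0.099.

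Genes of the systems that omeprazole acts on gave no call. Atp4a, the gastric proton pump subunit that omeprazole blocks, read -4.63, -5.29, -4.57 and -5.74 in low-dose and -5.11, -5.22, -6.18 and -5.52 in omeprazole arrays, a difference of 0.42 ± 0.36 (adjusted p = 0.536). The non-gastric pump Atp12a (-0.06 ± 0.46) also overlapped. Atp4a was well above background on 2 of 4 low-dose and 3 of 4 omeprazole arrays, and Atp12a on 1 and 2. A difference in either gene could therefore be missed. Gast, the gastrin gene, gave -0.48 ± 0.19 (adjusted p = 0.177), with all 4 low-dose arrays below the omeprazole arrays, and the anion transporter Slc26a9 gave 0.83 ± 0.24 (adjusted p = 0.0711). Over 25 acid and bicarbonate transport genes 0 passed, with a median of -0.17, which was -0.085 without low-dose replicate 3 and turned positive with the array median and with normexp. By an unadjusted p under 0.05 by limma 2 were higher and 2 lower, 8% each beside 11.3% and 9.35% of all genes.

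Cyp1a1, the main target of the aryl hydrocarbon receptor, read -2.60, -2.89, -4.43 and -6.65 in low-dose and -3.89, -2.17, -2.22 and -1.53 in omeprazole arrays. The groups overlapped and low-dose replicate 4 was far below the rest, so the difference of -2.16 ± 0.90 did not pass (adjusted p = 0.189). In the 4 untreated arrays, between -8.24 and -7.64, Cyp1a1 was not well above background, so differences from them are bounds. It was at least 2.41-fold higher in low-dose STW5, where 3 arrays were well above background, and at least 10.8-fold higher in omeprazole, comparisons that share the untreated arrays. The limma differences from the untreated signals as read had adjusted p of 0.00897 and 0.000314, which do not test these bounds. The receptor repressor Ahrr gave -0.61 ± 0.27 (adjusted p = 0.218), and Cyp1b1, Nqo1 and Ahr gave -0.18, -0.01 and 0.24 (adjusted p = 0.831, 0.993 and 0.561). The list of 19 genes had 0 calls and a median of -0.01, whose sign turned under 5 other scalings. By an unadjusted p under 0.05 by limma 1 was higher and 3 lower, 5.26% and 15.8% beside 11.3% and 9.35% of all genes.

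Cell type markers moved with the groups and, within the low-dose group, with replicate 4. The mean deviation of 10 fibroblast markers from their level over all arrays lay between -1.41 and -0.49 in low-dose and between -0.18 and -0.02 in omeprazole arrays, and that of 10 endothelial markers between -1.56 and -0.45 against -0.11 to 0.72, with no overlap. Macrophage markers lay between -2.36 and -0.43 in low-dose and between -0.78 and -0.12 in omeprazole arrays. Replicate 4 was the highest low-dose array for smooth muscle (0.71, against -0.97 to -0.56 in the others), Schwann cell and neuron (1.10 against -1.58 to -0.50) and erythrocyte markers (1.49 against -2.68 to -0.84), and the lowest for suprabasal epithelium (0.09 against 0.99 to 1.20). All 10 fibroblast and all 10 endothelial markers lay below 0 in the comparison, and 11 of 12 suprabasal markers above it, while the suprabasal markers Krt10, Lor and Dsg1 were not among the genes tested. The part of these tissue proportions in the gene differences above was not tested.

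**Figure D4:**
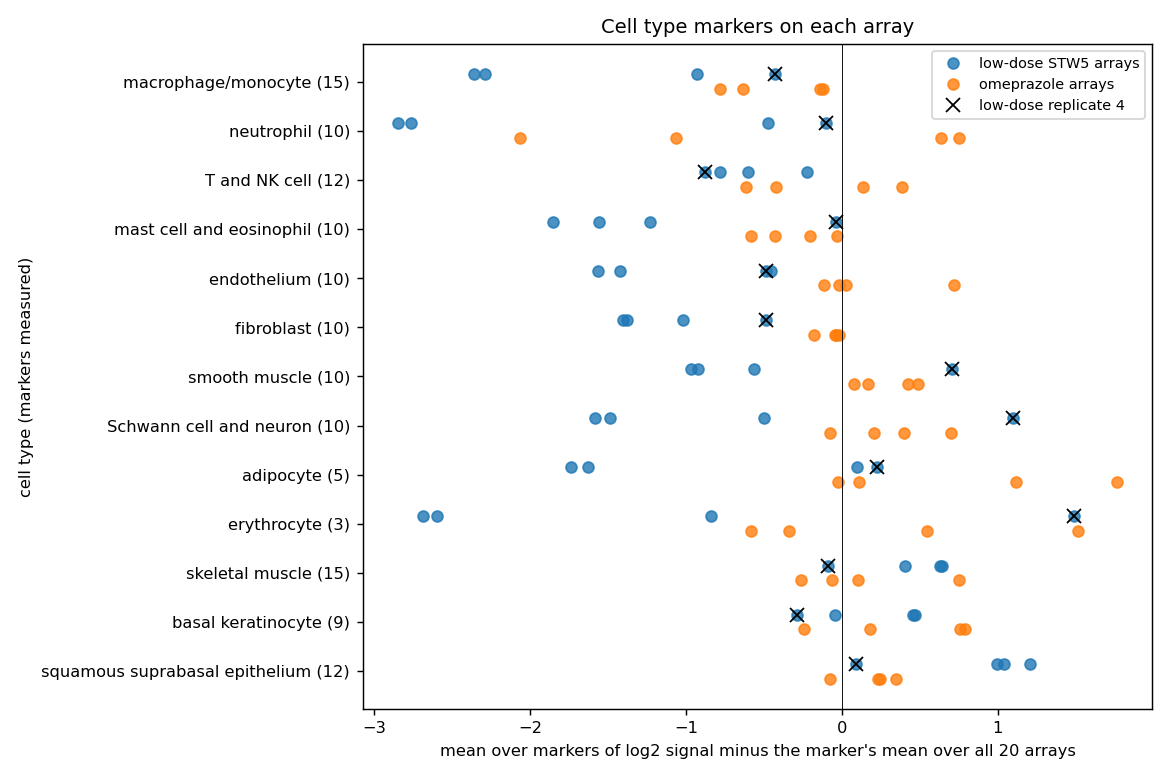
The x axis is the mean over the markers of a cell type of the log2 signal minus the mean of that marker over all 20 arrays, with 1 point per low-dose or omeprazole array and a cross on low-dose replicate 4. Fibroblast and endothelial markers do not overlap between the groups, and replicate 4 lies at the opposite end of its group from replicates 1 and 2 in several rows.

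The other large falls are given with the composition and background of their probes. Glul, glutamine synthetase, read -4.41, -5.20, -4.50 and -4.22 in low-dose and -1.84, -1.99, -1.62 and -1.90 in omeprazole arrays, a difference of -2.67 ± 0.37 (adjusted p = 0.000293). Its only probe holds 23.3% G and C, and with genes centred within classes of probe composition the difference was -0.98 (adjusted p = 0.107). Reep5, a shaper of the endoplasmic reticulum, differed by -2.21 ± 0.31 (adjusted p = 0.000326), but by -0.32 with normexp (adjusted p = 0.0873) and by -0.56 in the value table (adjusted p = 0.352). Gucy1b1, a subunit of the nitric oxide receptor guanylate cyclase, fell by 2.00 ± 0.42 on the log2 scale (adjusted p = 0.0141). That call was lost with signals raised to the lowest well above background (-0.58, adjusted p = 0.187), with only these groups fitted (adjusted p = 0.0816), without low-dose replicate 3 (adjusted p = 0.109) and without low-dose replicates 1 and 2 together (adjusted p = 0.0942). Spon1, an extracellular matrix protein, gave -2.58 ± 0.60 (adjusted p = 0.0311) and -1.24 on a second probe, Slc25a33, a mitochondrial nucleotide carrier, -2.12 and -1.05, and Cacna1g, a T-type calcium channel, -2.01 and -0.21. The probes used for Reep5, Gucy1b1 and Spon1 were well above background on 1 low-dose array each, and that of Cacna1g on 0. In omeprazole these probes were well above background on all 4 arrays. In low-dose arrays Pkib, Adcy4, RT1-N1, Gtf2h1 and Tmem71 were not well above background and were at least 2.29-fold, 2.08-fold, 1.69-fold, 1.25-fold and 1.16-fold lower, and Tsg101 has no such bound. Pkib encodes an inhibitor of protein kinase A, Adcy4 an adenylyl cyclase, Gtf2h1 a subunit of the transcription factor TFIIH, and Tsg101 a part of the ESCRT machinery. All the calls given after Glul here were lost with normexp and in the value table, and those of Spon1, Slc25a33, Cacna1g, Pkib, Adcy4, RT1-N1 and Tmem71 also without omeprazole replicate 3.

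The base composition of the probe moved with the difference. The first 30 of the 60 bases of 6 probes, read 5′ to 3′ from the array files with G and C in capitals, show the contrast between 2 set-aside probes (Txnip and Pecr), 2 called lower (Glul and Angpt2) and 2 called higher (Tnnt1 and Tnnc1).
Txnip: tttGtGtatCtttttGtatGattaaaaaCt
Pecr: atCaCtttaatGttaataGttttatCtttG
Glul: ttaaattttttaaaGCaaaaCaaGtttaGa
Tnnt1: CCCaGGaGCCaCCGGaGtGtGtCCCatCtG
Tnnc1: GaCatCGaaGaGCtCatGaaGGaCGGtGaC
Angpt2: aGtGattttaGCaCaaaGGattCGGaCaat
The Tnnt1 and Tnnc1 probes lie at chr1:68045083-68045142 and chr16:6642153-6642212 and that of Angpt2 at chr16:75939239-75939298 in the rn4 build that the array files use, and hold 55%, 50% and 41.7% G and C over all 60 bases. Txnip, Pecr and Glul hold 18.3%, 21.7% and 23.3%. The shown stretches of Txnip, Pecr and Glul hold 6, 6 and 5 G and C, against 20 in Tnnt1 and 16 in Tnnc1.

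Across all genes the median difference was -1.29 for the 59 genes with probes of at most 25% G and C and -0.39 for the 140 genes between 25% and 30%, and it lay between -0.01 and 0.21 in every class above. Of the first class 59.3% and of the next 20% were called lower in low-dose STW5, and 0 genes of either were called higher. On 1 slide the medians of the first class were 0.13 for high-dose STW5 against omeprazole and 0.03 for low-dose STW5 against untreated arrays. With genes centred within composition classes, 87 genes outside the set-aside probes were higher and 65 lower. The cause of the pattern was not tested, and it runs with the slide.

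**Figure D5:**
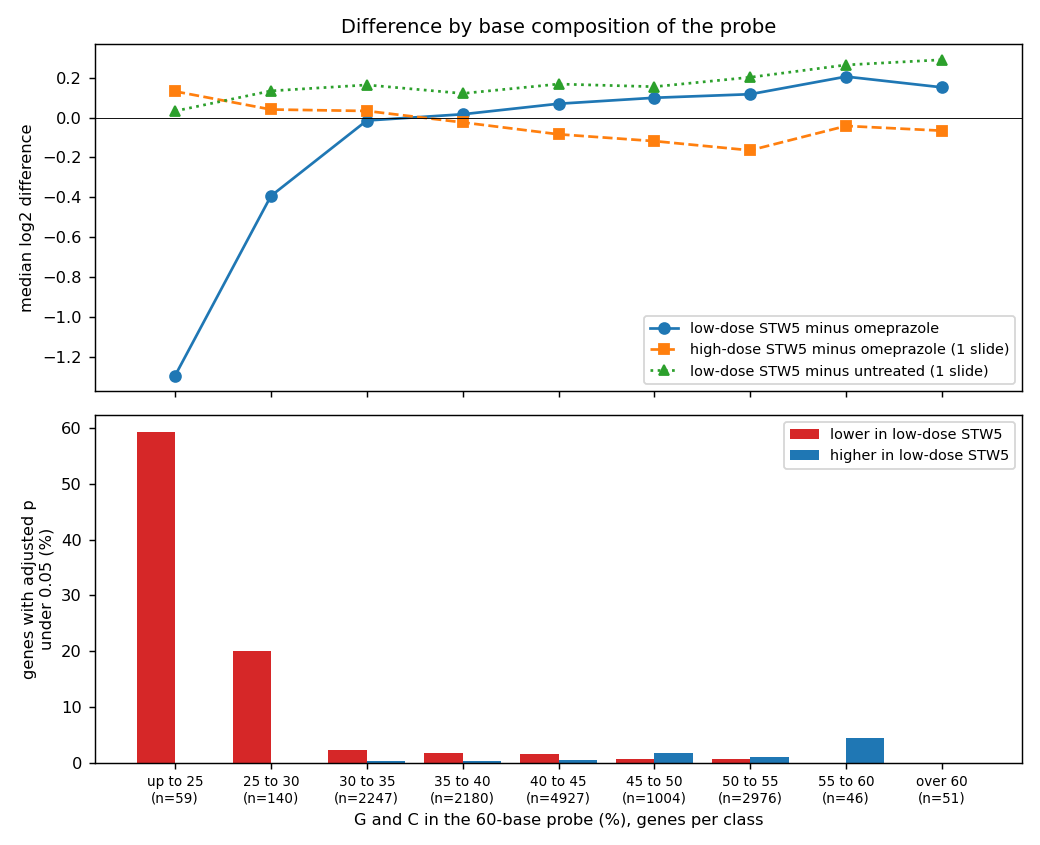
The x axis gives classes of the share of G and C in the probe with their gene counts, the upper panel the median log2 difference of 3 comparisons and the lower panel the percent of genes called in each direction. The comparison across slides falls to -1.29 in the class poorest in G and C, where the comparisons within a slide stay near 0 and 59.3% of genes are called lower.

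The set-aside genes are given by value only, since the omeprazole arrays chose them. The 164 that read higher on the slide of high-dose and omeprazole arrays had a median difference of -1.47, a median of 36.7% G and C beside 45% for all genes, and 43 of them were not well above background in low-dose arrays. Txnip, an inhibitor of thioredoxin and of glucose uptake, read -4.80, -5.17, -5.70 and -5.41 in low-dose and -0.86, -1.51, -1.59 and -1.10 in omeprazole arrays, and high-dose arrays lay between -1.04 and -0.55. The low-dose probes of Hspd1-ps3, a processed pseudogene, of Pecr, a peroxisomal enoyl reductase, and of RT1-T24-4, a class I histocompatibility gene, were not well above background, at least 5.77-fold, 4.82-fold and 4.14-fold lower. The 2 named genes on the other side were Psmb5, a catalytic proteasome subunit (0.60), and Asb6 (0.51). Of the set-aside genes 21 had another kept probe, 24 probes in all with a median of -0.04, and 1 of the 24 showed at least 50% of the difference of the probe set aside, whose median over these genes was -1.12. The rule chose the set-aside probes by their values and not the other probes, so these medians are not a like comparison. The genes nearest to the limit of the rule were AABR03127998, RGD1559566 and Ms4a15 inside it, with differences of -0.49, -1.57 and -0.63, and Yap1, Tmem160 and Smc4 outside it, at -0.64, 0.65 and -0.91.

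Beside the other comparisons of the same arrays, the 198 called genes outside the set-aside probes are given with their medians. The arrays titled as high dose differed from omeprazole with a median of 0.00 for the 82 higher and 0.02 for the 116 lower genes, comparisons that share the omeprazole arrays. Of the 82 and 116 genes, 2 and 1 also differed between high-dose STW5 and omeprazole at an adjusted p under 0.05, beside 0.220% of all genes. These 3 were Tnnt1, Tnnc1 and the cohesin protector Sgo2, chosen after their values were seen, at -0.84 in low-dose (adjusted p = 0.0484) and -1.02 in high-dose arrays (adjusted p = 0.0443). Against untreated arrays of their own slide, the 82 and 116 genes had medians of 0.64 and -0.98 in low-dose STW5, a comparison that shares the low-dose arrays that chose them.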

How the data were processed

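Scanner intensity files of 20 one-colour arrays were used, made by the authors with Agilent Feature Extraction 10.7.3.1 per the file headers; gProcessedSignal is background-subtracted and not scaled between arrays. Spots carry the software's marks for background and outliers, per the file headers. The deposited value table holds the ratio of each signal to the median of its own array, so each column has a median of 1, and its 8 STW5 columns match the scanner files of the other dose.

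Control and outlier spots were left out, spots of a probe were averaged, and log2 intensity minus the 75th percentile of each array was taken. Probes with 50% of spots well above background on at least 4 arrays were kept (19915 of 30367, of which 3782 have no gene name), and a gene was represented by its brightest probe. Names came from RefSeq by accession (18105 probes), symbol (2628) or synonym (547), or from the array alone (1953), and 7134 probes had none. All 5 groups were fitted with limma 3.58.1 in R 4.3.3 (lmFit, eBayes), with p-values adjusted by Benjamini-Hochberg over 13630 genes and a threshold of 0.05. The number of arrays limits the precision. On simulated data for this comparison with 13630 genes, 43% of log2 changes of 1 and 82% of log2 changes of 2 were recovered, with 7 false calls.

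The comparison, its set-aside rule and the gene lists were chosen with earlier results of these data known. Named genes are the 15 largest rises and 15 largest falls among calls with no overlap of arrays and an established symbol, up to 4 set-aside genes each way, up to 5 list members with the smallest p, and the genes of the drug target systems. The alternatives were other backgrounds, scalings, filters, sample sets and weights, the value table, and each replicate left out. Centring by probe composition and leaving out low-dose replicates 1 and 2 together were chosen after seeing the data. Some genes that this rule names are not reported here.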

Additional observations from a re-analysis of the deposited data

How the results depend on the processing

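Counts are given as higher and lower genes, with those outside the set-aside probes in parentheses. They were 85 and 253 (82 and 116) as reported, 1404 and 219 (1395 and 112) with normexp, 129 and 224 (125 and 92) with quantile normalization, 830 and 242 (820 and 118) with the array median, and 66 and 187 (64 and 68) with signals raised to the lowest well above background. The median of all genes was 0.20 with normexp and 0.26 with the array median, so the share of higher calls, 25.1%, became 86.5% and 77.4%, and it was 36.5% with quantile normalization. Fitting only these groups gave 11 and 177 (10 and 65), array weights 1513 and 1232 (1502 and 1076), 20 arrays as 20 samples 550 and 594 (540 and 443), and the value table under its labels 39 and 4 (39 and 4). Centring by probe composition gave 89 and 162 (87 and 65; 35.5% higher), and leaving out low-dose replicates 1 and 2 together 13 and 165 (13 and 53). Leaving out 1 replicate at a time gave 13 to 301 and 162 to 489 (12 to 296 and 44 to 354). The cause of these shifts was not tested.

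Replicate numbers did not pair the samples: same-numbered samples had correlations of -0.01, -0.06, 0.30 and 0.27, and numbers 3 and 4 alone correlated best with their own. With the replicate number as a block, over 20 arrays, 557 and 603 genes (548 and 453) were called.

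Of the 32 named genes called outside the set-aside probes, 1 (Tnnt1) kept its call under all 22 alternatives, and no other kept it under all but the value table. In the value table, which sets the other STW5 arrays against omeprazole, signs turned for Adcy4 (0.091), Ctsk (0.58), Emcn (0.024), Glul (0.87), Gtf2h1 (0.00040), Gucy1b1 (0.70), Hpgds (0.73), Loxhd1 (-0.040), Or2t6 (-0.10), Pecr (0.10), Pkib (0.19), Psmb5 (-0.071), RT1-N1 (0.11), RT1-T24-4 (0.65), Spon1 (1.97), Tacr1 (0.13), Tcp11 (-0.094), Tmem71 (0.099), Txnip (0.48) and Tyms (0.093). With normexp they turned for Cacna1g (0.013), Gtf2h1 (0.041), Gucy1b1 (0.023), Tmem71 (0.052) and Tsg101 (0.082), and with raised signals for Tsg101 (0.035). Low signal limits the low-dose arrays most, since 577 genes were not well above background there alone, against 78 in omeprazole alone.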
